A study of Mus musculus with 27 samples.

Results

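A set of 50 transcripts, of the 111462 listed, stood lower in the livers of Acly-knockout mice after ischemia-reperfusion (KO IR) than in every other liver library of the study. A transcript was taken in when its highest KO IR library lay below the lowest of the other 12 libraries, when its KO IR mean was at most 0.5 times the lowest mean of the other groups, and when that lowest mean was 2 TPM or more. TPM, a level corrected for transcript length, is the share of a library's transcripts on a fixed total. The members were selected on their TPM in these same libraries, so the separation of KO IR from the other groups is a description and supports nothing.

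The RNA data hold 4 groups of 4 mouse liver libraries, taken 24 hours after surgery. KO IR livers came from Alb-cre:Aclyf/f mice and had ischemia-reperfusion surgery. WT IR livers came from wild-type mice and had the same surgery. KO sham and WT sham livers came from Alb-cre:Aclyf/f and wild-type mice after sham surgery. The labels call the livers of the ischemia groups hypoxia-reperfusion and the sham livers normoxia. They do not say whether the wild-type mice carried the floxed alleles or the Cre, nor whether libraries came from separate animals, so the spread behind each p-value is that between libraries and may be technical.

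ATP citrate lyase, the product of Acly, splits citrate outside mitochondria and so supplies acetyl-CoA for fatty acid synthesis, cholesterol synthesis and the acetylation of histones. Alb-cre acts in hepatocytes, so the other cells of the liver can keep the gene. In ischemia-reperfusion, blood flow to the liver is stopped and let back, which injures hepatocytes and draws in immune cells. The files name transcripts by Ensembl transcript identifier and do not pair them with genes, so no gene name, function or sequence is given to any member, and the Acly RNA of each liver and markers of liver cell types were not read. In whole tissue, fewer cells of a type and less RNA per cell cannot be told apart.

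Library totals ran between 37787856 and 44348822 estimated counts in KO IR, 43394487 and 44597703 in WT IR, 43554422 and 43791839 in KO sham, and 42802889 and 43772832 in WT sham livers. KO IR libraries 1 to 3 had the lowest totals, and every other library held at least 42802889. The scale of KO IR also differed. Over the 10352 transcripts whose lowest mean reached 2 TPM, the median ratio of KO IR to KO sham means was 1.25, a shift of 0.32 on the log2 scale, and that of WT IR to WT sham was 1.05. The rule itself sets the members' KO IR means against that shift, so nothing is read from their direction. Their median ratio of KO IR to KO sham means was 0.239 on the TPM scale and 0.191 relative to the median transcript. The part of library totals and scale in the choice of members was not tested, apart from 1 change of scale. Dividing TPM by edgeR's TMM scaling factors kept all 50 members and raised the number to 101.

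Of the 251 transcripts whose KO IR libraries all lay below the other 12, 163 reached 2 TPM, which is 1.57% of the transcripts at that level, and 50 also met the ratio. The same rule turned on the other groups held 7 transcripts low in the WT IR libraries, 1 in the KO sham libraries and 0 in the WT sham libraries. Its mirror image, with all libraries of a group above the others, a mean at least 2 times the highest other mean and a mean of 2 TPM or more, found 425 transcripts for KO IR, 6 for WT IR, 2 for KO sham and 0 for WT sham. On TPM as deposited KO IR was the group most often set apart. The balance of its 425 above and 50 below depended on the scale and on where the level was asked. With 2 TPM asked of the other 3 groups, as in the downward rule, 153 lay above. With TPM divided by the TMM factors as well, 73 lay above and 101 below, the opposite order. Near the ratio threshold, ENSMUST00000029326.5 and ENSMUST00000091224.10 were just inside at 0.499 and 0.486, while ENSMUST00000031398.13 and ENSMUST00000190128.1 were just outside at 0.5001 and 0.503. Near the level threshold, ENSMUST00000082032.12 and ENSMUST00000043335.10 were inside with lowest means of 2.31 and 2.33 TPM, and ENSMUST00000023360.13 and ENSMUST00000132020.1 outside with 1.77 and 1.63 TPM. In ENSMUST00000141279.1 and ENSMUST00000221091.1 the highest KO IR library was at 0.987 and 0.978 times the lowest other library, and in ENSMUST00000212481.1 and ENSMUST00000043077.7, which were left out, at 1.02 and 1.03 times.

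**Figure D1:**
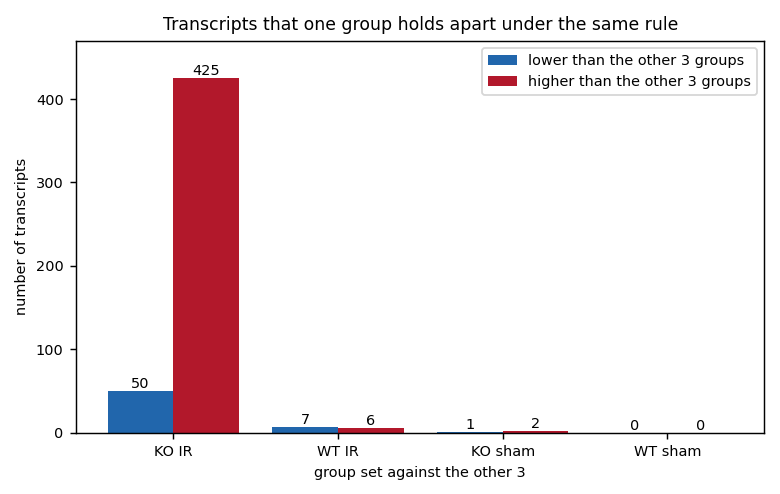
Number of transcripts (vertical axis) that lie below (left bars) or above (right bars) the other 3 groups under the same rule, for each of the 4 groups. On TPM as deposited KO IR has 50 below and 425 above, an order that turns to 101 below and 73 above with TMM scaling and the level asked of the other 3 groups, and no other group has more than 7.

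The members covered a wide range of levels. Their lowest mean outside KO IR ran from 2.31 to 4847 TPM with a median of 8.47 TPM. Most of the summed level came from 2 of them, which held 81.0% of the members' TPM in WT sham livers. All 50 together held 2825 ± 202 TPM in KO IR, 7085 ± 1793 TPM in WT IR, 10851 ± 1585 TPM in KO sham and 9997 ± 2257 TPM in WT sham livers (SD, n = 4). Without these 2 the sums were 362 ± 75.7, 1219 ± 322, 1913 ± 127 and 1902 ± 306 TPM in KO IR, WT IR, KO sham and WT sham livers (SD, n = 4). The order of the group means was the same for WT IR and KO IR with and without them, and the sums of the KO sham and WT sham livers lay within each other's spread. The members were short, with a median length of 1160 bases against 1761.5 bases for the 10352 transcripts at the level of the rule, and 23 of the 50 (46.0%) were under 1000 bases against 29.2% of those transcripts. This difference in length was described and not tested.

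The most abundant member was ENSMUST00000107484.1, of 927 bases, with 2098, 2147, 1555 and 2167 TPM in KO IR, 4453, 5660, 2986 and 6289 TPM in WT IR, 7415, 5940, 4726 and 9115 TPM in KO sham and 3815, 8085, 8449 and 4478 TPM in WT sham livers. KO IR library 3 was the low one of its group, while the other 3 groups overlapped. KO IR held 0.411 times the WT IR mean and 0.293 times the KO sham mean. WT IR was at 0.781 times WT sham and did not pass the test (log2 fold change -0.41, adjusted p = 0.716 by edgeR). Next came ENSMUST00000102840.4, of 1696 bases, with 496, 465, 560 and 363 TPM in KO IR, 1077, 747, 959 and 1295 TPM in WT IR, 1967, 2014, 2663 and 1915 TPM in KO sham and 2193, 1646, 1364 and 2350 TPM in WT sham livers. Here the WT IR libraries lay below all WT sham libraries. The KO sham and WT sham libraries overlapped, with a ratio of means of 1.13. ENSMUST00000098040.3, of 930 bases, had 41.5, 49.4, 36.3 and 51.2 TPM in KO IR, 155, 216, 67.03 and 297 TPM in WT IR, 170, 143, 112 and 224 TPM in KO sham and 110, 191, 294 and 219 TPM in WT sham livers. Its KO IR libraries were close together and the others spread widely and overlapped.

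ENSMUST00000122381.7 and ENSMUST00000202863.3, each of 864 bases, had identical values in all 16 libraries, so they count as 1 measurement and the set as 49. Both stood at 29.4, 17.4, 10.3 and 22.3 TPM in KO IR, 91.3, 321, 47.4 and 140 TPM in WT IR, 137, 33.2, 32.5 and 270 TPM in KO sham and 51.2, 149, 192 and 81.7 TPM in WT sham livers. The highest KO IR library stood at 0.904 times KO sham 3, the lowest of the other libraries, and KO sham 2 was close to it, while the other groups overlapped. The KO IR mean was 0.168 times the lowest other mean, or 0.293 times without KO sham 4, and WT IR did not differ detectably from WT sham (adjusted p = 0.95 by edgeR). A few members shared this wide spread outside KO IR. ENSMUST00000186359.1 had 0.726, 0.747, 1.18 and 0.612 TPM in KO IR, 7.24, 2.17, 6.51 and 2.16 TPM in WT IR, 1.58, 2.85, 11.4 and 4.01 TPM in KO sham and 1.64, 6.19, 1.64 and 5.06 TPM in WT sham livers. This member is 362 bases long and rests on 23.4 estimated counts over the 4 KO IR libraries, the fewest of the set.

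**Figure D2:**
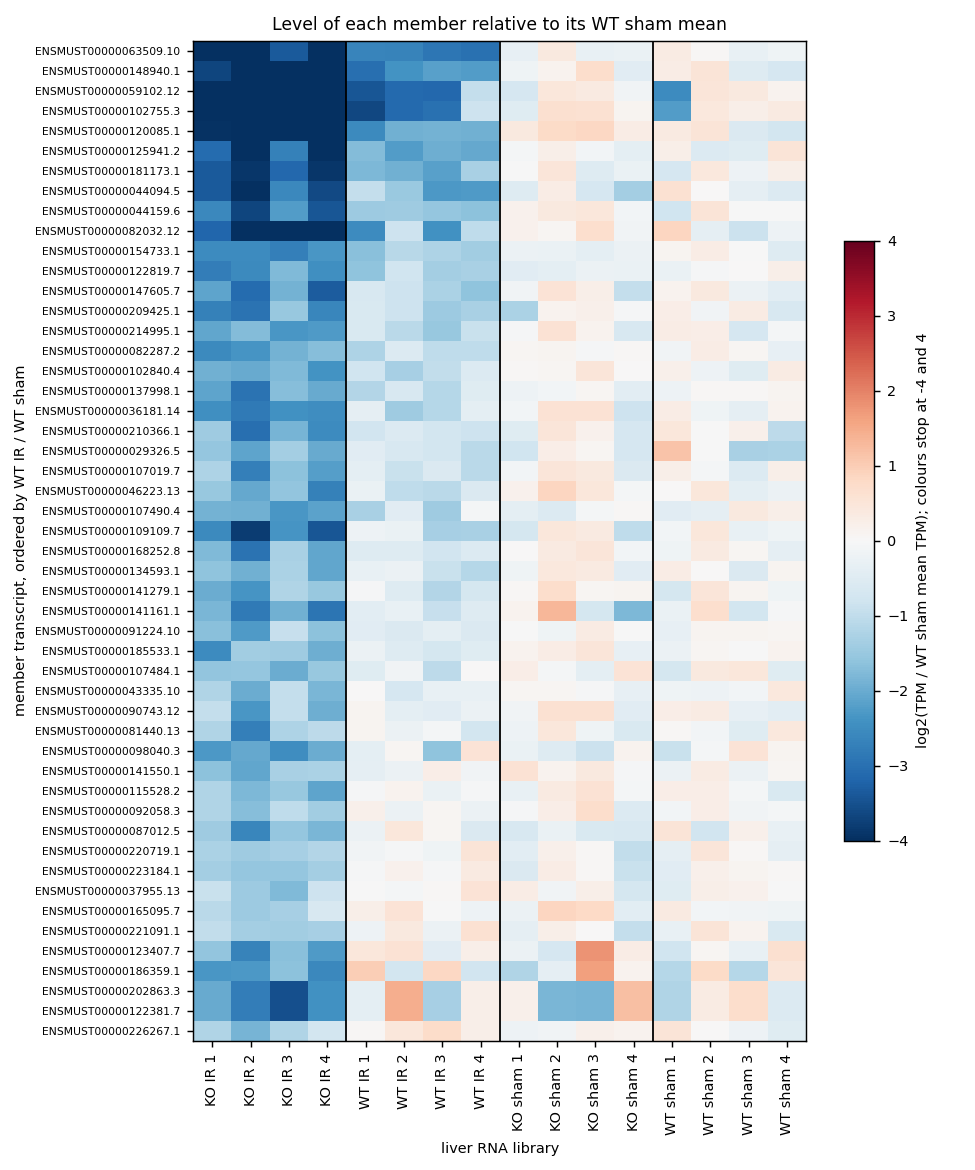
Level of each of the 50 members (rows, ordered by the ratio of WT IR to WT sham means) in each of the 16 libraries (columns, 4 groups), as log2 of TPM over the member's WT sham mean. The KO IR columns are blue throughout, as the rule requires. The WT IR columns are mostly blue in the upper rows and vary around white in the lower rows, in some members widely. The sham columns vary around white.

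Whether ischemia-reperfusion alone lowered the members was asked in wild-type livers. The rule read these libraries too, through the lowest library and the lowest mean. A WT IR library was the lowest in 33 members, and the WT IR mean the lowest in 38. The wild-type counts and p-values are therefore not independent of the rule. All 50 members passed the low-count filter and were tested among 36041 transcripts in 1 edgeR quasi-likelihood model over the 16 libraries. In WT IR against WT sham, 10 members fell and 0 rose (adjusted p under 0.05), against 0.905% of all transcripts tested that fell and 1.42% that rose. That share over all transcripts depended on their level. With at least 10 CPM asked in 4 libraries, 13 of the 32 members tested fell, against 8.46% of 7445 transcripts. The median log2 fold change over the members was -0.70. The mean ratio was under 1 in 40 members, against 40.6% of the transcripts at the level of the rule, and was at most 0.5 in 14 members, against 1.25%. All 4 WT IR libraries lay below all 4 WT sham libraries in 15 members, against 3.51%. The name "lowered only in knockout" does not describe the 10 members that also fell in wild-type livers. For the other members it is not shown to hold, since a missing call does not show that there was no fall. DESeq2 called 17 members lower in this contrast, against 3.13% of the transcripts it tested.

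Of the 10 members that fell in wild-type livers, ENSMUST00000148940.1 had the largest fold change. It stood at 1.42, 0.614, 0.45 and 0.931 TPM in KO IR, 2.24, 3.47, 4.0 and 3.801 TPM in WT IR, 16.1, 19.8, 29.3 and 13.1 TPM in KO sham and 22.1, 26.1, 12.7 and 11.4 TPM in WT sham livers. The 3 levels did not overlap, with sham livers of both genotypes together at the top. Its WT response was a log2 fold change of -2.49 (SE 0.36, adjusted p = 0.00229 by edgeR). ENSMUST00000120085.1 had 1.71, 0.784, 1.57 and 1.14 TPM in KO IR, 4.54, 6.98, 7.22 and 6.96 TPM in WT IR, 34.6, 44.9, 47.0 and 32.9 TPM in KO sham and 34.3, 38.3, 17.7 and 15.95 TPM in WT sham livers. Its WT IR libraries too lay below every sham library, and its WT response was -2.12 on the log2 scale (SE 0.31, adjusted p = 0.00229 by edgeR). ENSMUST00000154733.1, of 302 bases, had 20.5, 20.6, 17.6 and 23.2 TPM in KO IR, 36.8, 54.8, 49.999 and 44.8 TPM in WT IR, 99.1, 97.6, 89.9 and 101 TPM in KO sham and 126, 145, 117 and 82.1 TPM in WT sham livers. The 4 KO IR and 4 KO sham libraries each lay close together, those of WT sham less so, and WT IR fell below WT sham (log2 fold change -1.44, SE 0.20, adjusted p = 0.0015 by edgeR).

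ENSMUST00000181173.1 averaged 2.75 ± 0.738 TPM in KO IR, 9.36 ± 2.44 TPM in WT IR, 31.1 ± 9.64 TPM in KO sham and 31.8 ± 9.97 TPM in WT sham livers (SD, n = 4), with a WT log2 fold change of -1.81 (SE 0.29, adjusted p = 0.00464 by edgeR). ENSMUST00000125941.2 averaged 2.03 ± 1.38 TPM in KO IR, 5.97 ± 0.864 TPM in WT IR, 22.3 ± 3.88 TPM in KO sham and 23.5 ± 8.58 TPM in WT sham livers (SD, n = 4; WT log2 fold change -2.03, SE 0.38, adjusted p = 0.011 by edgeR). The low member ENSMUST00000122819.7 averaged 1.71 ± 0.563, 3.65 ± 0.923, 6.76 ± 0.529 and 8.53 ± 1.27 TPM in KO IR, WT IR, KO sham and WT sham livers (SD, n = 4; WT log2 fold change -1.29, SE 0.23, adjusted p = 0.00982 by edgeR). In all of these the WT IR libraries lay between the KO IR and the sham libraries without overlap. ENSMUST00000044159.6 was of the same kind at a higher level, with 24.0 ± 10.97 TPM in KO IR, 61.1 ± 4.19 TPM in WT IR, 207 ± 36.1 TPM in KO sham and 174 ± 61.2 TPM in WT sham livers (SD, n = 4; WT log2 fold change -1.58, SE 0.30, adjusted p = 0.0127 by edgeR). The calls of these 4 members, and of ENSMUST00000148940.1, ENSMUST00000120085.1 and ENSMUST00000154733.1, held under every alternative that tested them. The other calls were near the threshold. ENSMUST00000102840.4 (log2 fold change -0.93, SE 0.21, adjusted p = 0.0301 by edgeR) lost its call without WT IR 1, WT IR 2, WT IR 3, WT sham 1, WT sham 2 or WT sham 4, with adjusted p of 0.0552 to 0.102 by edgeR. ENSMUST00000082287.2 (log2 fold change -1.0, SE 0.23, adjusted p = 0.0374 by edgeR) lost it in 11 of 19 alternatives, with adjusted p up to 0.124. ENSMUST00000214995.1 (-1.06, SE 0.26, adjusted p = 0.0487 by edgeR) lost it in 16 of 19, with adjusted p up to 0.152, and was the called member whose WT IR and WT sham libraries overlapped.

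**Figure D3:**
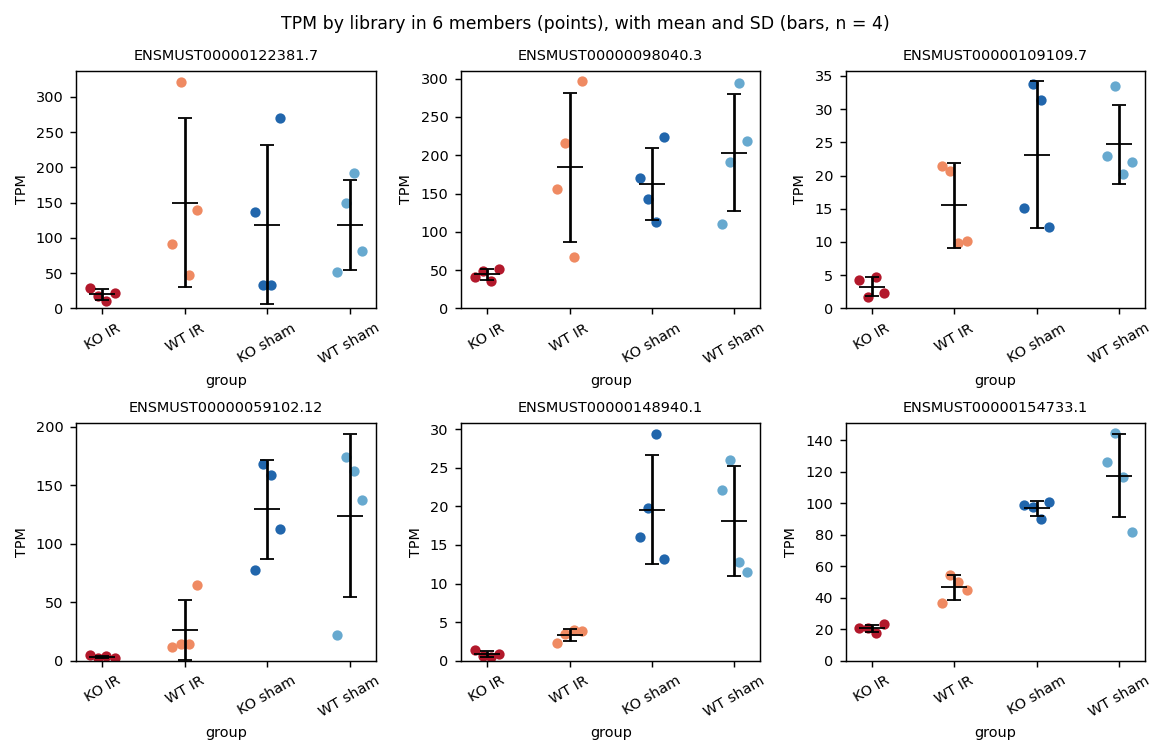
TPM in every library (points) with the mean and SD (bars, n = 4) of 6 members, by group, each panel on its own linear axis from 0. In the upper panels the WT IR libraries overlap the WT sham libraries, as they do in the lower left panel, and in the remaining panels they lie between KO IR and the sham groups without overlap.

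Several members with deep falls in KO IR also had low WT IR means without a call in wild-type livers. ENSMUST00000059102.12 had 4.65, 1.95, 3.68 and 2.71 TPM in KO IR, 11.49, 14.3, 14.1 and 64.3 TPM in WT IR, 77.8, 168, 159 and 113 TPM in KO sham and 21.7, 174, 162 and 137 TPM in WT sham livers. ENSMUST00000102755.3 had 1.79, 0.763, 0.817 and 0.466 TPM in KO IR, 2.93, 4.23, 4.63 and 20.6 TPM in WT IR, 26.5, 57.3, 56.6 and 39.3 TPM in KO sham and 7.82, 48.8, 43.2 and 47.4 TPM in WT sham livers. The same pair of libraries stood out in both, WT IR 4 as the high one of its group and WT sham 1 as the low one, so that WT IR and WT sham overlapped (adjusted p = 0.112 and 0.129 by edgeR). Their KO IR means were 0.125 and 0.119 times the lowest other mean, and 0.244 times it for both members without WT IR 4, when they ranked 9 and 8 in the set. With all libraries, ENSMUST00000102755.3 was 46.8-fold lower in KO IR than in KO sham livers. ENSMUST00000063509.10 had 1.82, 0.678, 7.06 and 6.88e-06 TPM in KO IR, 11.54, 11.3, 9.78 and 9.11 TPM in WT IR, 57.9, 94.5, 58.6 and 59.5 TPM in KO sham and 90.8, 75.4, 58.6 and 64.1 TPM in WT sham livers. KO IR 4 was in effect at 0 and KO IR 3 close to the WT IR libraries, the ratio of the KO IR mean to the lowest other mean was 0.229 with KO IR 3 and 0.0798 without it, while WT IR lay below every sham library (log2 fold change -2.86, adjusted p = 0.0888 by edgeR). ENSMUST00000044094.5 and ENSMUST00000147605.7 also had all WT IR libraries below all WT sham libraries, at 0.321 and 0.486 times the WT sham mean (adjusted p = 0.0678 and 0.108 by edgeR). In ENSMUST00000082032.12 the WT IR and WT sham libraries overlapped, with WT IR at 0.354 times WT sham (adjusted p = 0.1 by edgeR).

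In 18 members the WT IR mean was at least 0.8 times the WT sham mean, and in 10 of these it was above it. None of the 18 was called in wild-type livers by edgeR, which their choice by this ratio largely fixes, so nothing is read from it. An example was ENSMUST00000092058.3, with 21.2, 14.99, 24.0 and 18.5 TPM in KO IR, 55.5, 41.0, 51.5 and 41.4 TPM in WT IR, 46.7, 58.3, 79.0 and 33.6 TPM in KO sham and 44.98, 58.4, 44.4 and 46.5 TPM in WT sham livers. The other 3 groups overlapped, and WT IR stood at 0.975 times WT sham (adjusted p = 0.92 by edgeR). ENSMUST00000090743.12 averaged 37.6 ± 17.0 TPM in KO IR, 86.4 ± 16.4 TPM in WT IR, 117 ± 40.9 TPM in KO sham and 101 ± 26.3 TPM in WT sham livers (SD, n = 4). ENSMUST00000123407.7 averaged 0.617 ± 0.206 TPM in KO IR, 2.92 ± 0.819 TPM in WT IR, 3.802 ± 3.22 TPM in KO sham and 2.44 ± 1.03 TPM in WT sham livers (SD, n = 4). The highest WT ratio, 1.31, was that of ENSMUST00000226267.1.

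The remaining 18 members had WT IR means of 0.506 to 0.781 times WT sham. ENSMUST00000168252.8 averaged 29.9 ± 13.04 TPM in KO IR, 74.9 ± 5.95 TPM in WT IR, 130 ± 25.5 TPM in KO sham and 112 ± 24.8 TPM in WT sham livers (SD, n = 4), and its WT IR libraries lay below its WT sham libraries without a call (adjusted p = 0.329 by edgeR). ENSMUST00000109109.7 had 4.21, 1.79, 4.77 and 2.33 TPM in KO IR, 21.4, 20.6, 9.85 and 10.1 TPM in WT IR, 15.1, 33.8, 31.4 and 12.3 TPM in KO sham and 22.9, 33.5, 20.2 and 22.1 TPM in WT sham livers. Its KO IR libraries stood far below the rest, at 0.211 times the lowest other mean, while the other groups overlapped.

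**Figure D4:**
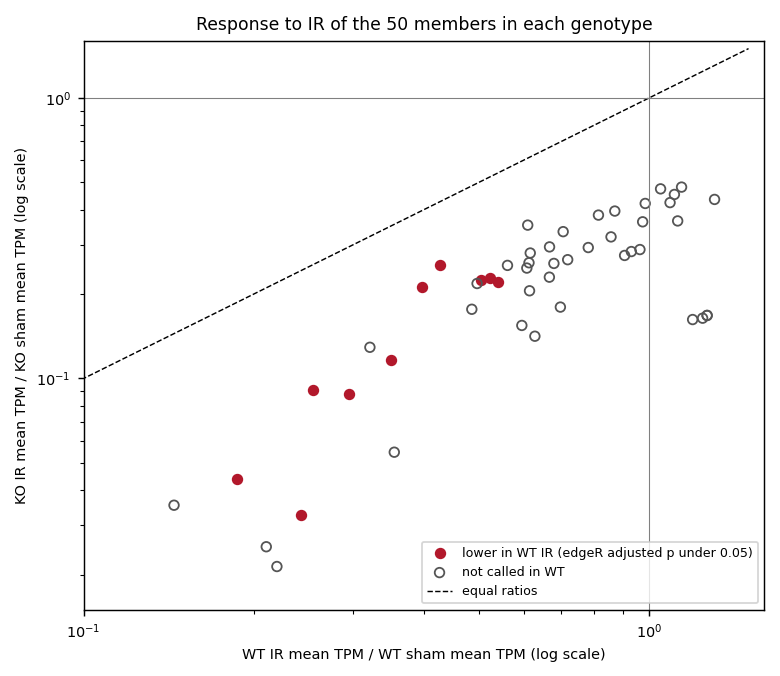
Ratio of KO IR to KO sham mean TPM (vertical, log scale) against the ratio of WT IR to WT sham mean TPM (horizontal, log scale) for the 50 members, filled where edgeR called a fall in wild-type livers (10 members). The horizontal spread runs from 0.145 to 1.31, and a point left unfilled does not show that there was no fall. All points lie below the dashed line of equal ratios, a position that the rule largely fixes.

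No member passed the test for the knockout alone. In KO sham against WT sham, 0 of 50 members passed in either direction by edgeR, and 0 had an unadjusted p under 0.05. Over all transcripts tested, edgeR called 0.00555% lower and 0.00277% higher. DESeq2 called 0 members, and 28 transcripts lower and 29 higher of the 35271 it tested. With so few calls over all transcripts, a count of 0 is no trait of the members. The ratio of KO sham to WT sham means ran from 0.693 to 1.56 with a median of 1.03. These sham levels were thus not distinguishable at this replication, which does not show that they were equal.

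For the contrasts that the rule used, the counts are given as a description. In KO IR against WT IR, 48 of 50 members were called lower by edgeR, against 1.78% of all transcripts tested that were lower and 2.22% that were higher. In KO IR against KO sham all 50 were called lower, against 5.47% lower and 5.84% higher. KO IR was 2.01 to 8.44-fold lower than WT IR and 2.08 to 46.8-fold lower than KO sham livers by mean TPM. The interaction, which asks whether the response to ischemia-reperfusion differed between the genotypes, was called lower in KO for 6 members, against 0.186% of all transcripts tested that were lower and 0.144% that were higher. The count depended on the method and the libraries, and so did that over all transcripts. DESeq2 called 41 members and 1.81% of all transcripts it tested lower, and without KO IR 3 edgeR called 20 members and 0.661% of all transcripts. Without KO IR 1 or WT IR 4 the interaction count was 2, and without WT IR 1, WT IR 3, KO sham 2 or WT sham 3 it was 3, with 0.0718% to 0.0938% of all transcripts called lower.

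Compared with transcripts lowered by ischemia-reperfusion in both genotypes, the members overlapped in part. A like rule for that pattern, with all 8 IR libraries below all 8 sham libraries, both IR means at most 0.5 times their sham means and both sham means of 2 TPM or more, found 56 transcripts. That is 0.525% of the 10672 transcripts with such sham means. Of the 56, 8 were members, which is 16% of the members and 14.3% of the 56. The members' own rule largely fixes the knockout part of this pattern, so nothing is read from the overlap.

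Within KO IR the libraries did not rank alike. Library 3 was the highest of its group in 20 members, library 1 in 17, library 4 in 11 and library 2 in 2, and library 2 was the lowest in 26. The other library nearest to KO IR was a WT IR library in 33 members, a KO sham library in 11, of which KO sham 4 in 8, and a WT sham library in 6. The lowest mean outside KO IR was that of WT IR in 38 members, KO sham in 8 and WT sham in 4. Applying the rule without KO IR 3 raised the number of members to 86, with 49 of the 50 kept, and leaving out any other library gave 46 to 75. In 45 members every KO IR library held 10 or more estimated counts, and the other 5 had a KO IR library with fewer.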

How the data were processed

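RNA was measured in 16 liver libraries. Trimmomatic, kallisto and build mm10 are named, without versions, in the submitters' processing notes. Per the file headers, the authors deposited for each transcript its length, an estimated count and TPM. TPM was used for the rule and for levels. The estimated counts were rounded and tested per transcript with edgeR 4.0.16 (R 4.3.3, limma 3.58.1), with filterByExpr, TMM scaling, robust quasi-likelihood dispersion, a coefficient for each group, leaving 12 residual degrees of freedom. Adjusted p-values are Benjamini-Hochberg over 36041 transcripts. DESeq2 1.42.0 was an alternative. The edgeR script was tested on simulated data. SE is the log2 fold change over the square root of the F statistic. Counts split among isoforms by kallisto carry an assignment error that these tests do not include, and a change of isoform cannot be told apart from a change of the gene. No library was a duplicate: chi-square per transcript between libraries of a group was 26.4 to 104, where counting noise alone gives about 1. Groups came from the sample titles.

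The members, lists and tests were chosen with earlier results of these data known. Named members are the 12 of highest level, the 12 of smallest ratio, the 6 with the smallest p among those called in wild-type livers, and the neighbours of each threshold. Others were chosen after their values were seen: the remaining members called in wild-type livers and the member of highest WT ratio. Planned counts over pathway gene lists, cell type markers and peaks of the 8 CUT&RUN lists at member genes need gene names, which the files do not pair with these identifiers, and were not made.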

Additional observations from a re-analysis of the deposited data

Results flagged for a closer look

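Among the 24 members named by level, ratio or call and the summed level, 100 groups of 4 libraries were searched for a library far from the other 3 (by Dixon's gap test), and 8 were found, where chance gives about 1 in 20. ENSMUST00000107484.1 was low in KO IR 3, at 1555 TPM where its companions held 2098 to 2167 TPM. ENSMUST00000102840.4 was high in KO sham 3, at 2663 TPM against 1915 to 2014 TPM. ENSMUST00000063509.10 was high in KO sham 2, at 94.5 TPM against 57.9 to 59.5 TPM. ENSMUST00000092058.3 was high in WT sham 2, at 58.4 TPM against 44.4 to 46.5 TPM. ENSMUST00000120085.1 was low in WT IR 1, at 4.54 TPM against 6.96 to 7.22 TPM.

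WT IR 4 was high in a pair of members, ENSMUST00000059102.12 at 64.3 TPM against 11.49 to 14.3 TPM and ENSMUST00000102755.3 at 20.6 TPM against 2.93 to 4.63 TPM among WT IR 1 to 3. ENSMUST00000102755.3 was also low in WT sham 1, at 7.82 TPM against 43.2 to 48.8 TPM among WT sham 2 to 4.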

How the results depend on the processing

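The number of members moved with the scale and the thresholds. It was 101 on TPM divided by TMM factors, and 16 and 124 with a ratio of 0.333 and 0.667 in place of 0.5. Leaving out each library gave 46 to 86. On CPM of the estimated counts it was 70, and on TMM-scaled CPM 136. Each of these CPM alternatives kept 45 of the 50 members and was added after seeing the data. The 425 transcripts above in KO IR became 153 with the level asked of the other 3 groups, 217 with TMM factors and 73 with both, alternatives also added after seeing the data. Members called lower in WT IR against WT sham numbered 17 by DESeq2, which called 3.13% of all transcripts it tested lower against 0.905% by edgeR. On leaving out each library they numbered 7 to 11, against 0.373% to 1.08% of all transcripts tested. With at least 10 CPM in 4 libraries 32 members were tested, of which 31 were called in KO IR against WT IR, 32 in KO IR against KO sham and 21 in the interaction, against 8.84%, 19.2% and 3.53% of the 7445 transcripts tested. The interaction count was 41 by DESeq2, and 2 to 20 on leaving out each library, with 0.0718% to 0.661% of all transcripts called lower. Leaving out each library gave 34 to 49 members for KO IR against WT IR, with 0.751% to 1.97% of all transcripts. For KO IR against KO sham it gave 47 to 50, with 3.84% to 5.72%. The cause of these shifts was not tested, except that the stricter filter tests fewer members. No member was called in KO sham against WT sham under the alternatives run, where at most 0.0794% of all transcripts tested were called lower. Same-numbered libraries of different groups did not deviate together (r of -0.0661 to 0.0421 over 24 pairs), so the number is only a name. With the replicate number as a block, 8 members were called in WT IR against WT sham, against 0.597% of all transcripts lower. The counts were 39 in KO IR against WT IR (1.38%), 48 in KO IR against KO sham (4.84%) and 0 in the interaction (0.0444%). The gene-summed rule, the pathway counts and the peak comparison were not run, because no table used here pairs transcripts with genes.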
